A study of Mus musculus with 20 samples.

Results

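The nuclear genes for the subunits of the oxidative phosphorylation complexes were examined in mouse liver exposed to perfluorooctanoic acid (PFOA), a fluorinated surfactant known as an activator of the nuclear receptor PPARa. They were chosen by symbol alone, with no measured value other than a count minimum: the Nduf genes of complex I, Sdha to Sdhd of complex II, the Uqcr genes and Cyc1 of complex III, the Cox4 to Cox8 genes of complex IV and the Atp5 genes of complex V. Of 53599 gene symbols in the tables, 104 matched, 13 were set aside as processed copies (symbols ending in -ps, with or without a number) and 8 as having fewer than 20 counts over the 20 libraries. The 83 genes left comprised 38 of complex I, 4 of complex II, 9 of complex III, 15 of complex IV and 17 of complex V.

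RNA from bulk liver was sequenced from male (M) and female (F) mice of 2 genotypes, mice expressing human PPARa (hPPARa) and PPARa knockout mice (KO). From weaning, all mice drank water with 0.5% sucrose, alone (vehicle) or with 8 micromolar PFOA (as the unit was read here), for 6 to 7 weeks, and all ate a custom American-style diet with 51.8% of energy from carbohydrate, 33.5% from fat and 14.7% from protein. The hPPARa groups were 3 F vehicle, 2 F PFOA, 2 M vehicle and 3 M PFOA libraries, and the KO groups 1 F vehicle, 3 F PFOA, 3 M vehicle and 3 M PFOA libraries. The promoter that drives the human receptor, the part of the mouse gene removed in the KO and the animals' exact ages are not stated in the labels used.

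Each library held between 14973673 and 17953860 counts, of which the 83 genes took 0.977% to 1.24%. Levels are given as CPM (counts scaled to a common library size), computed from the deposited counts after TMM scaling. Liver identity was plain from Alb, the serum albumin gene, at 35648 to 142686 CPM. Ppara itself was read at 16.6 to 39.5 CPM in hPPARa and at 8.47 to 25.2 CPM in KO libraries, which checks no label because the removed part is not stated. The KO libraries F vehicle replicate 1, F PFOA replicate 2 and M PFOA replicate 2, 3 in all, carried transcripts of the other sex, and results in KO are given with and without them.

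Oxidative phosphorylation is the inner mitochondrial membrane's route from nutrients to ATP. Complexes I and II pass electrons from NADH and succinate to coenzyme Q, complex III passes them to cytochrome c, complex IV reduces oxygen, and complex V uses the resulting proton gradient to make ATP. Complex II is wholly nuclear encoded, while the others also hold subunits made from mitochondrial DNA. Several subunits exist as tissue isoforms, and in liver the complexes also take up electrons released by fatty acid oxidation, a pathway under PPARa control.

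The promoters of 67 of the 83 genes were found in RefSeq (GRCm38.p6) as 72 windows from 250 bases before to 50 after a start. The palindromic NRF1 motif was in 6.94% of these windows and in 0.971% of all 32851 promoter windows of the same length. The ETS motif CCGGAAG, which GABPA recognises, was in 23.6% against 8.86%, and the YY1 motif in 6.94% against 0.852%. The CCAAT box was in 41.7% against 37.4%, and the ERR motif TCAAGGTCA in 2.78% against 0.423%. The PPAR direct repeat, AGGTCA with 1 base before its copy, was in none of the subunit windows and in 0.0396% of all windows. That is 13 windows of 32851, so its absence from 72 windows cannot show whether these genes hold PPAR sites. The subunit shares for NRF1 and YY1 rest on 5 windows each and that for ERR on 2. Both strands were searched and only exact letters counted. The subunit windows were also richer in G and C, with a median of 58.0% against 52.7%.

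The promoters of 4 genes are shown as the 120 bases before the start, 5′ to 3′ on the gene's strand in GRCm38. They were picked because their genes carry results below. Cox6b2 had the largest rise on PFOA in hPPARa, and Sdha is a catalytic subunit that rose there. Atp5g1 had the clearest genotype difference, and Uqcrc1 is a core subunit that fell in KO. Capitals mark CCAAT boxes in either orientation, the only searched motif found in these stretches, and overlapping boxes run together.
Cox6b2, chr7:4753095-4753214, minus strand: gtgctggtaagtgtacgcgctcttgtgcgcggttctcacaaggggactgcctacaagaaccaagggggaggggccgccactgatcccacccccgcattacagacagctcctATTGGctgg
Sdha, chr13:74350241-74350360, minus strand: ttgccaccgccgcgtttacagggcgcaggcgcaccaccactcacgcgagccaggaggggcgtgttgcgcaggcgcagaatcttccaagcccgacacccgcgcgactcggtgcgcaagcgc
Atp5g1, chr11:96075632-96075751, minus strand: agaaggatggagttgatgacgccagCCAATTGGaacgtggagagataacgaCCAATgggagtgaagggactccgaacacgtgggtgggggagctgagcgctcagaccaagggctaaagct
Uqcrc1, chr9:108936528-108936647, plus strand: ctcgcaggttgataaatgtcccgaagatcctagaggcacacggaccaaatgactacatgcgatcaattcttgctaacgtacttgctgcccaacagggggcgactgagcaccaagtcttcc
Atp5g1 held 5 CCAAT boxes in its whole window and Cox6b2 3; the Uqcrc1 window held an NRF1 motif 30 bases after the start, outside the stretch shown.

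Levels differed widely between subunits. They were put on a scale of CPM per kilobase of exon, available for 79 of the 83 genes. Length was the union of all exons of a gene in the GENCODE M21 annotation. It can exceed the length of the transcript in liver, so the ranking depends on it. It was 4912 bases for Atp5g1, 1675 for Atp5g2 and 2181 for Atp5g3. The median over the genes was 54.7 CPM per kilobase, each gene being averaged over the 8 groups. Highest stood the ubiquitous complex IV isoforms Cox6b1 at 436, Cox8a at 371 and Cox6a1 at 353 CPM per kilobase, followed by the catalytic beta and alpha subunits of ATP synthase, Atp5b at 269 and Atp5a1 at 264. Isoforms known from other tissues were among the lowest, with Cox4i2 of lung at 0.230, Cox6a2 of muscle at 0.335, Cox6b2 of testis at 0.500 and Cox7a1 of heart and muscle at 1.76. Of the 3 genes for the identical mature subunit c of ATP synthase, Atp5g3 was read at 139, Atp5g1 at 2.59 and Atp5g2 at 0.701 CPM per kilobase.

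Some low readings belong to genes with near-identical copies, chosen here after their values were seen. Ndufs5 was read at 0.112 to 1.01 CPM while its processed copy Ndufs5-ps was read at 12.5 to 18.6 CPM. Reads that match both could have been split or dropped in the authors' counting, so the levels of Ndufs5, Cox7c, Ndufb4 and Atp5l are uncertain. Overlapping neighbours add the same doubt for Ndufa4l2 (Shmt2), Atp5j (Gabpa), Uqcrc2 (Pdzd9) and Ndufa3 (Tfpt), since the labels do not state whether counting used strand.

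Summed over its members and with the sexes pooled, each of the 5 complexes had overlapping PFOA and vehicle ranges in both genotypes. Within a sex some did not overlap. In KO M livers all 5 sums were lower on PFOA without overlap, at 1241 to 1327 against 1470 to 1641 CPM in complex III. In hPPARa F livers complexes II (1134 to 1140 against 815 to 982 CPM) and V (4253 to 4271 against 3185 to 3949 CPM) were higher on PFOA. In hPPARa M livers only complex V was, at 3754 to 4173 against 3687 to 3737 CPM. In hPPARa livers complex II summed to 953 ± 82.3 CPM on vehicle and 1094 ± 55.2 CPM on PFOA (SD, n = 5 each), and complex V to 3680 ± 294 and 4086 ± 219 CPM. A sum follows its most abundant members. In hPPARa F livers Atp5a1 went from 250 to 334 and Atp5b from 239 to 323 CPM per kilobase. In M livers they went from 262 to 296 and from 240 to 276. Neither passed the test given below, and the complex V genes called there, Atp5g1 and Atp5j, were lower. In complex II, Sdha went from 74.9 to 118 CPM per kilobase in F livers. Complexes I, III and IV of hPPARa livers moved by less than their SD, from 3207 ± 228 to 3286 ± 156, from 1622 ± 113 to 1627 ± 85.8 and from 1823 ± 133 to 1832 ± 163 CPM. Over both sexes of KO all 5 sums were lower on PFOA (3 F and 3 M livers) than on vehicle (1 F and 3 M livers), for example 1314 ± 67.2 against 1485 ± 135 CPM in complex III and 2865 ± 170 against 3071 ± 261 CPM in complex I. Among the KO F livers the order was the other way in all 5, with the 1 vehicle library at 2727 CPM and the PFOA mean at 2964 CPM in complex I, and at 1315 and 1351 CPM in complex III.

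**Figure D1:**
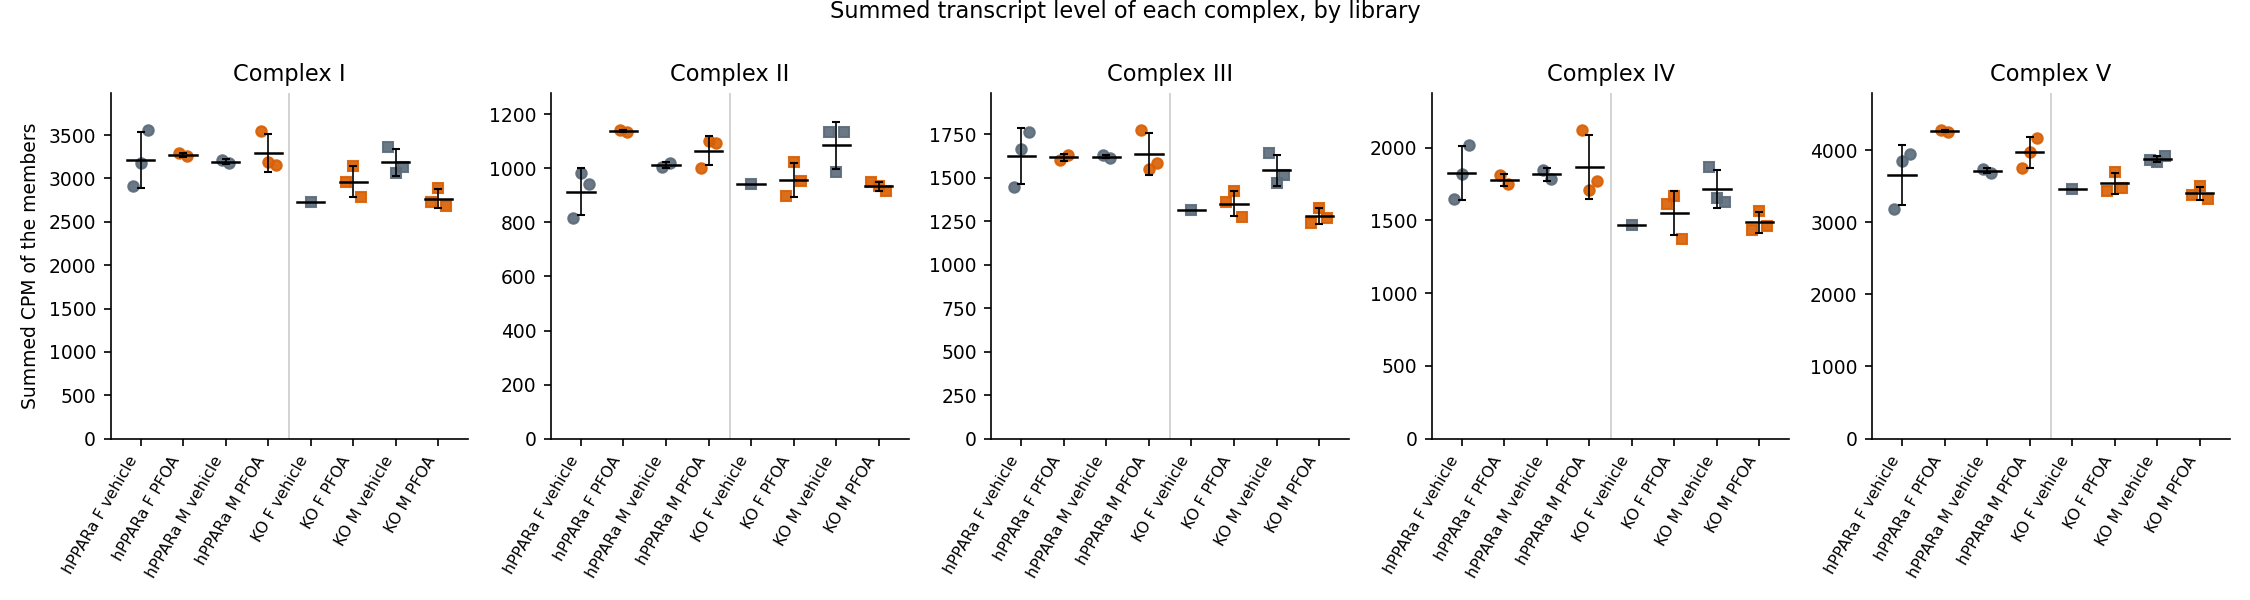
Summed CPM of the members of each complex (vertical axes, from 0) in each library, by group (horizontal axis); points are libraries, black lines the mean and SD (no SD for the single KO F vehicle library), circles hPPARa, squares KO, orange PFOA and grey vehicle. Complex II in hPPARa ran from 815 to 1019 CPM on vehicle and from 1002 to 1140 on PFOA, and the single KO F vehicle library lies below the KO M vehicle libraries in every panel.

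PFOA in hPPARa livers left most subunit transcripts within narrow bounds and moved a few in both directions. Among the 81 genes that passed the filter on low counts, 10 passed the test (edgeR quasi-likelihood, Benjamini-Hochberg adjusted p under 0.05 over 14400 genes), 6 higher and 4 lower. That is 12.3% of them, beside 22.6% of all genes tested, of which 12.8% were called higher and 9.76% lower. Among genes with a mean of at least 10 CPM it was 7 of 73 subunit genes, beside 27.1% of all. The median log2 fold change was -0.04, with 34 above and 47 below 0, against -0.01 for all genes, and the middle range from the 5th to the 95th percentile was -0.33 to 0.31 against -0.90 to 0.96. The 95% interval of the fold change lay within 1.5-fold either way for 70 of the 81 genes and within 2-fold for 77. Scaling moved the balance of the calls, to 9 higher and 3 lower by library totals and to 4 and 5 with upper quartile factors. By library totals the median was 0.02, with 43 above and 38 below 0 and all genes at 0.04.

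**Figure D2:**
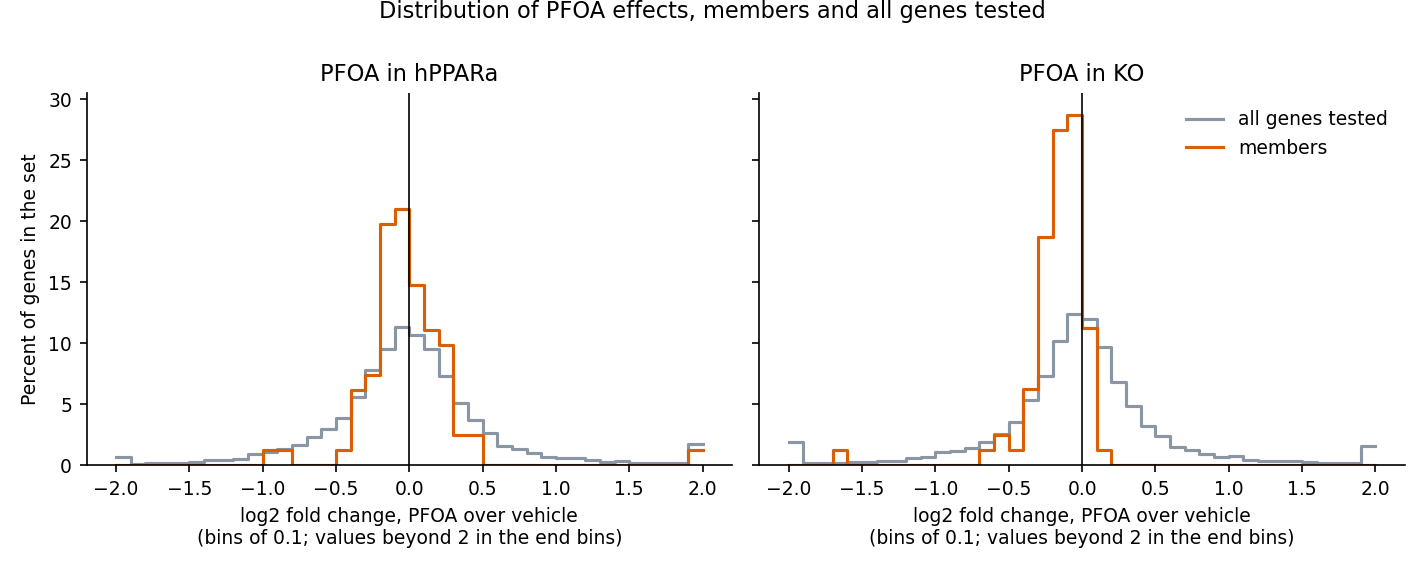
Percent of genes (vertical axis) in bins of log2 fold change of PFOA over vehicle (horizontal axis), for the subunit genes (orange) and all genes tested (grey), in hPPARa (left) and KO (right). The subunit genes form a narrower peak than all genes in both panels, centred at -0.04 in hPPARa and -0.13 in KO.

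The calls are given here by complex, and a difference between complexes was not tested. Complex I had 3 higher and 1 lower of 38 tested (median log2 fold change -0.06), complex II 1 higher of 4 (0.14), complex III 1 higher of 9 (0.01), complex IV 1 higher and 1 lower of 13 (-0.03), and complex V 2 lower of 17 (-0.03). In each the other members did not pass the test.

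Other cell types and hepatocyte genes moved with the exposure in the same libraries. Of 7 hepatocyte markers (Alb, Ttr, Apoa1, Ahsg, Serpina1a, Tat, Cps1) 5 were lower and none higher in hPPARa on PFOA, their sum going from 107734 to 197570 CPM on vehicle to 81664 to 119520 CPM on PFOA. Endothelial markers rose in 4 of 6, macrophage markers fell in 3 of 7 and stellate markers fell in 2 of 6. Cholangiocyte markers passed in 0 of 5, neutrophil markers rose in 1 of 2 tested (S100a8), and adipocyte markers in 1 of 1 tested. Of all genes tested, 12.8% were called higher and 9.76% lower. In bulk tissue fewer cells of a type and less RNA per cell cannot be told apart, and the part of these shifts in the subunit results was not tested.

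In complex I, Ndufs1, the large iron-sulfur subunit of the NADH arm, was at 85.5 to 106 CPM in the 5 vehicle and 107 to 128 CPM in the 5 PFOA livers, without overlap. Its log2 fold change was 0.31 ± 0.10 (SE; edgeR adjusted p = 0.0371). Ndufa10, an accessory subunit of the membrane arm, was at 142 to 176 CPM on vehicle and 191 to 200 CPM on PFOA, again without overlap, with a log2 fold change of 0.27 ± 0.08 (edgeR adjusted p = 0.0307). Ndufv1, the flavoprotein that takes electrons from NADH, had a log2 fold change of 0.25 ± 0.10 and did not pass (edgeR adjusted p = 0.0818).

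Ndufa4l2, a paralog of Ndufa4 known as a target of hypoxia signalling and grouped with complex I by its symbol, was lower. On vehicle it was at 5.26, 2.94 and 3.66 CPM in hPPARa F and 4.07 and 3.08 CPM in hPPARa M livers; on PFOA it was at 1.74 and 1.65 CPM in F and 3.05, 2.55 and 2.35 CPM in M livers. The 2 F PFOA livers were the lowest of the 10, while 1 M PFOA liver was above the lowest vehicle liver. It changed by -0.82 ± 0.23 on the log2 scale (edgeR adjusted p = 0.0205). Ndufa4 itself, now known as a complex IV subunit, had a log2 fold change of -0.02 ± 0.11.

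In complex II, which also belongs to the citric acid cycle, Sdha (its flavoprotein) rose. It was read at 265, 331 and 331 CPM in hPPARa F vehicle and 361 and 377 CPM in hPPARa M vehicle livers. On PFOA it was read at 493 and 484 CPM in F and 364, 478 and 479 CPM in M livers. All PFOA livers but M replicate 1 were above every vehicle liver, a 1.36-fold rise (log2 fold change 0.44 ± 0.12, edgeR adjusted p = 0.0175). Its partners had log2 fold changes of -0.12 ± 0.08 (Sdhb, the iron-sulfur subunit), 0.05 ± 0.09 (Sdhc) and 0.24 ± 0.11 (Sdhd), the membrane anchors, none of which passed.

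In complex III, Uqcrc2, a core subunit of the matrix side, was at 164, 185 and 197 CPM in hPPARa F vehicle and 177 and 192 CPM in M vehicle livers, and at 230 and 240 CPM in F PFOA and 194, 231 and 230 CPM in M PFOA livers. Only M PFOA replicate 1 fell within the vehicle range. On the log2 scale it rose by 0.29 ± 0.09 (edgeR adjusted p = 0.0427). Its partner core subunit Uqcrc1 was at 0.01 ± 0.09, the Rieske protein Uqcrfs1 at 0.01 ± 0.10 and cytochrome c1, Cyc1, at -0.07 ± 0.10 on the log2 scale.

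In complex IV the largest change was in Cox6b2, the testis form of a subunit that faces the intermembrane space. It was at 0.424, 0.360 and 0.271 CPM in hPPARa F vehicle and 0.262 and 0.0669 CPM in M vehicle livers, and at 2.19 and 1.82 CPM in F PFOA and 1.83, 0.934 and 0.722 CPM in M PFOA livers. These rest on few reads, 7, 6, 4, 4 and 1 on vehicle and 39, 32, 30, 15 and 12 on PFOA, yet every PFOA liver was above every vehicle liver. The log2 fold change was 2.56 ± 0.38 (edgeR adjusted p = 0.000345). As its vehicle level is so low, the gene passed the filter on low counts through its PFOA libraries; with no filter the log2 fold change was 2.58 (edgeR adjusted p = 3.91e-09). Among the PFOA results of the subunit genes in hPPARa it alone passed in all 18 alternative analyses, at 2.37 to 2.70. These alternatives drew on the same libraries, and all but the one with no filter kept the filter on low counts. The common isoform Cox6b1, at 251 to 384 CPM in hPPARa livers, had a log2 fold change of 0.16 ± 0.11 and did not pass.

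Cox7a1, the heart and muscle isoform, was lower, at 0.984 to 2.04 CPM on vehicle and 0.361 to 0.914 CPM on PFOA without overlap (log2 fold change -0.998 ± 0.32, edgeR adjusted p = 0.0377, and 0.0113 to 0.147 over its 18 alternatives, 10 of which lost the call). The 2 highest vehicle livers were F, and 6 skeletal muscle markers summed to 0.880 to 8.15 CPM in hPPARa F vehicle, against 0 to 0.183 CPM in the other hPPARa groups, where Ckm and Mb were at 0. The part of this in the Cox7a1 result was not tested. The liver isoforms Cox6a1, Cox7a2 and Cox8a and the shared Cox4i1 had log2 fold changes of -0.10 to 0.02.

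In complex V, Atp5g1, a gene for the proton-carrying ring subunit c, was at 19.8, 19.5 and 18.6 CPM in hPPARa F vehicle and 16.1 and 16.3 CPM in M vehicle livers. On PFOA it was at 15.9 and 16.4 CPM in F and 11.4, 13.5 and 13.6 CPM in M livers. Within each sex the PFOA livers were below the vehicle livers, and F PFOA overlapped M vehicle. Its log2 change was -0.31 ± 0.09 (edgeR adjusted p = 0.0220). Atp5j, coupling factor 6 of the stalk, was at 151 to 192 CPM on vehicle and 126 to 153 CPM on PFOA, which overlap at 1 liver of each, with a log2 fold change of -0.32 ± 0.10 (edgeR adjusted p = 0.0289). The catalytic pair was on the other side of 0 without passing, Atp5b at 0.31 ± 0.13 (edgeR adjusted p = 0.101) and Atp5a1 at 0.28 ± 0.11 (adjusted p = 0.0771).

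The hPPARa count rested on single libraries. It was 1 (Cox6b2) without F PFOA replicate 1 and also without F PFOA replicate 2, which each leave 1 F PFOA liver, assumed to vary like the other groups. It was 19 (9 higher, 10 lower) without M PFOA replicate 1. The count was 6 without F vehicle replicate 2 or M vehicle replicate 1 and 5 without M PFOA replicate 2 or M vehicle replicate 2. Sdha and Ndufa4l2 lost their calls in those 2 F PFOA fits and in no other of their 18 alternatives (edgeR adjusted p up to 0.0719 and 0.0871). Atp5j lost its call in 5, Atp5g1 in 6, Ndufa10 in 7, Ndufs1 in 8 and Uqcrc2 in 10 of 18.

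**Figure D3:**
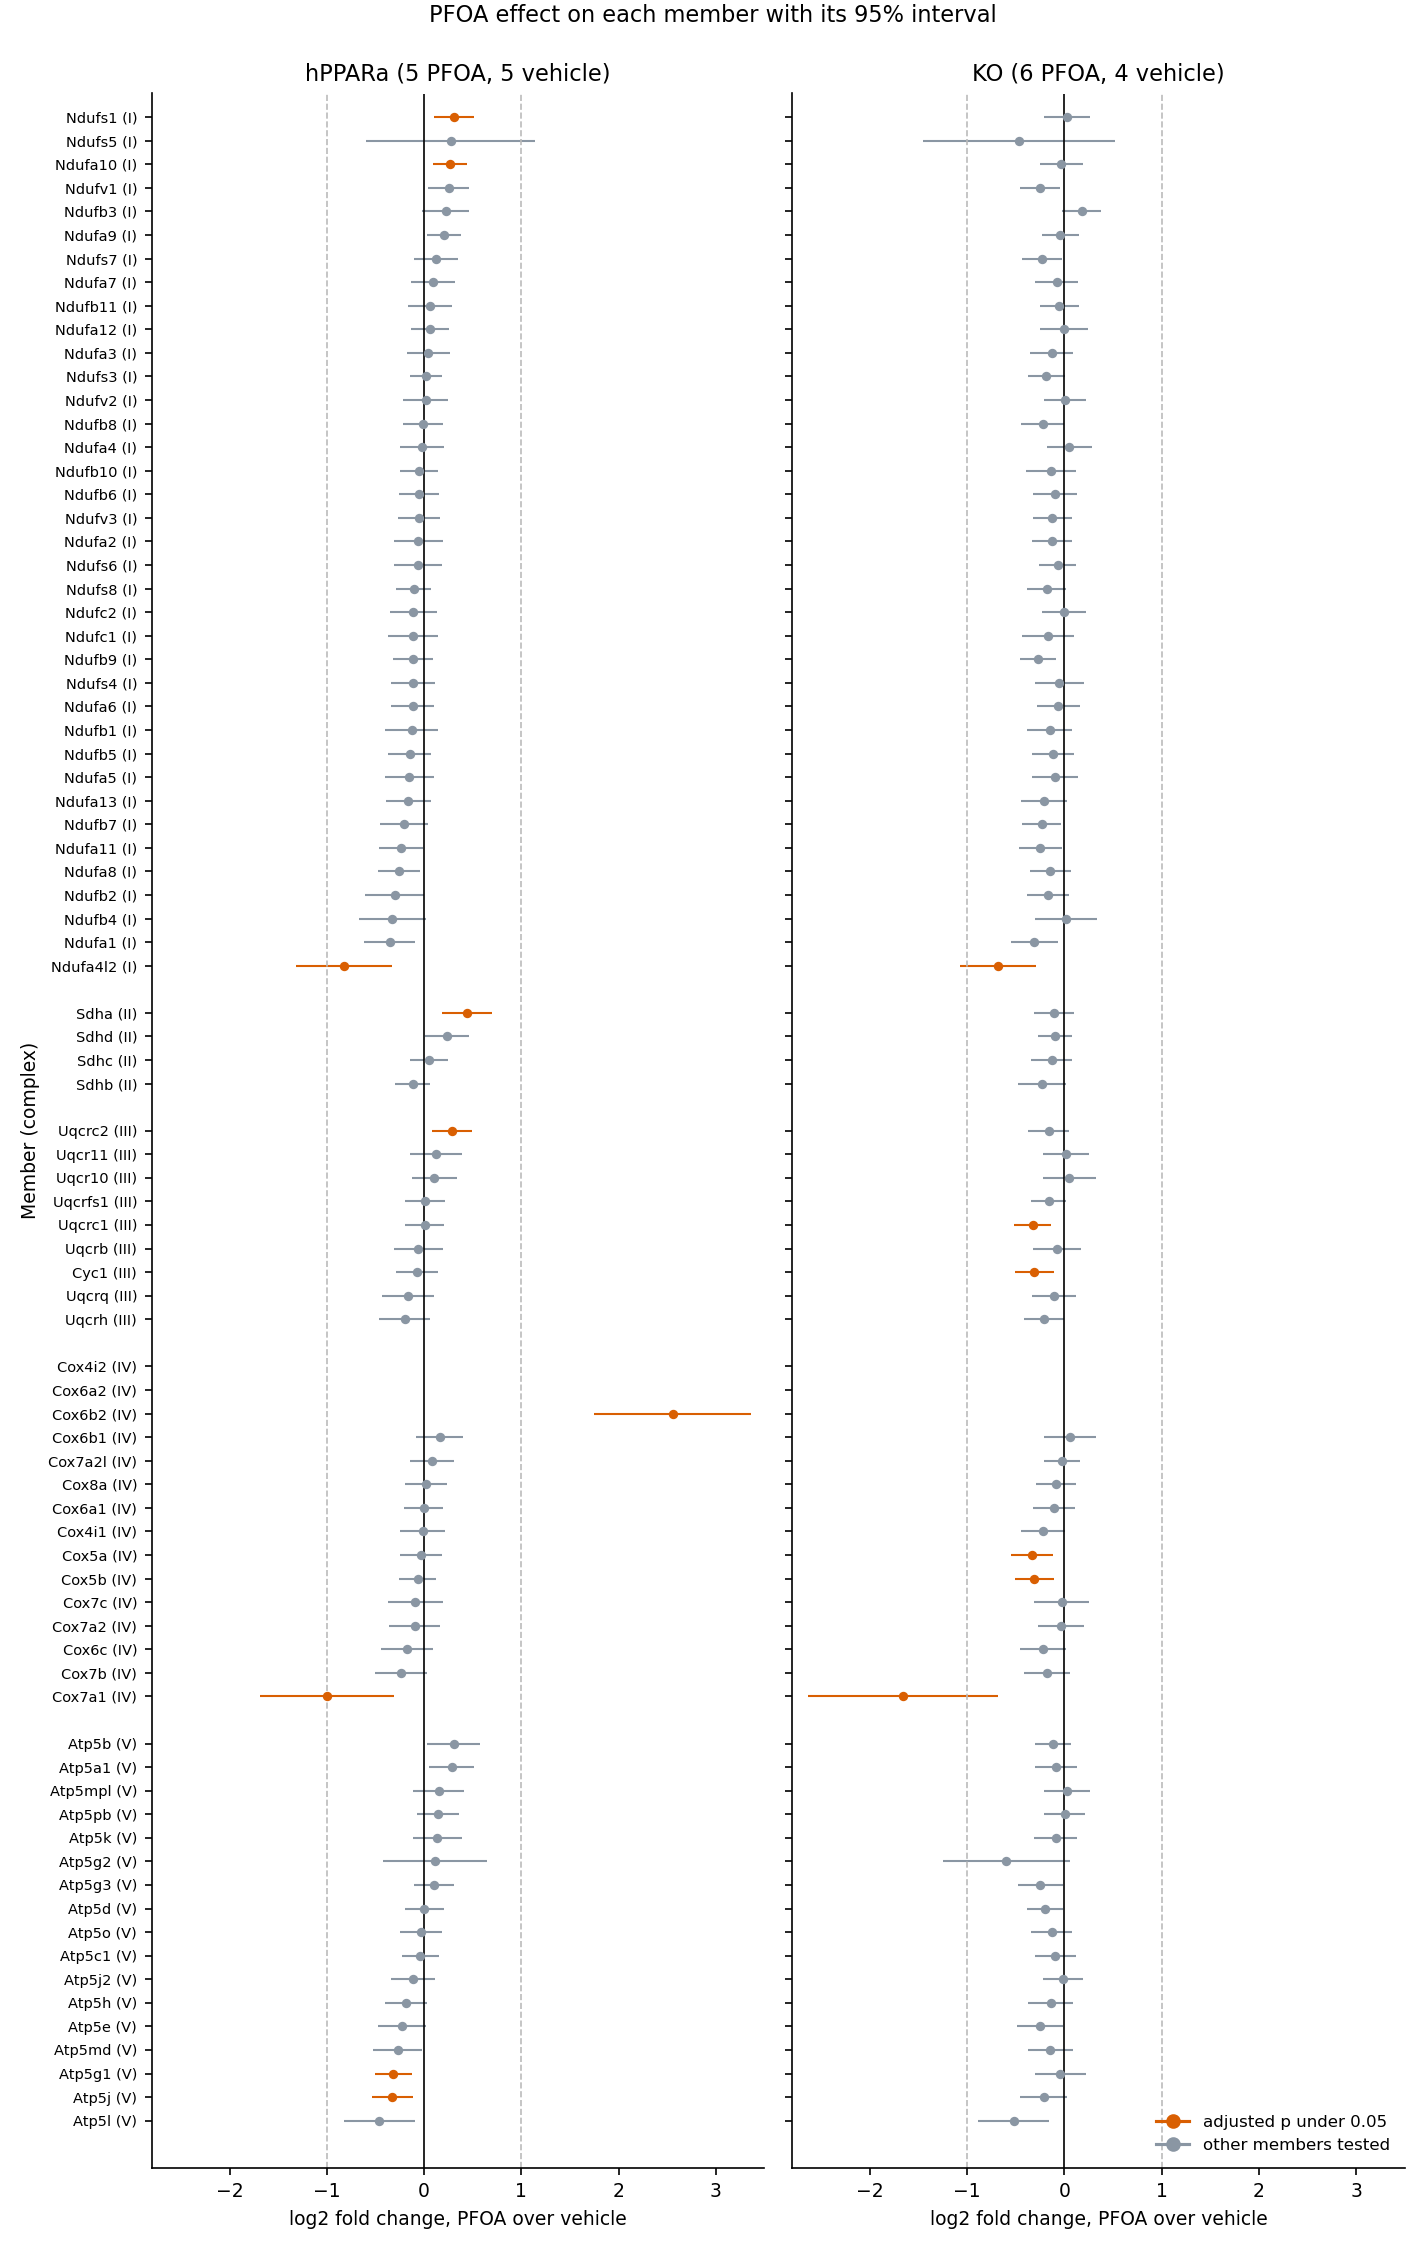
Log2 fold change of PFOA over vehicle (horizontal axes) with its 95% interval for the subunit genes (vertical axis, complex in brackets), in hPPARa (left) and KO (right); orange marks adjusted p under 0.05, dashed lines mark 2-fold, a gene with no point was not tested and 1 gene is not drawn. Over all genes tested, 34 of 81 lie right of 0 in hPPARa and 10 of 80 in KO.

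Within the sexes of hPPARa, females had 10 of 81 past the test (5 higher, 5 lower), beside 18.4% of all genes (10.5% higher, 7.87% lower), and males 1 of 81, beside 8.2% (5.3% higher, 2.9% lower). Among those called, females showed higher Cox6b2, Sdha (0.63 ± 0.15), Ndufv1 (0.42 ± 0.12) and Ndufa10 (0.34 ± 0.11), and lower Ndufa4l2 (-1.25 ± 0.30), Ndufb4 (-0.63 ± 0.20), Atp5l (-0.81 ± 0.21), Atp5md (-0.57 ± 0.12) and Atp5j (-0.43 ± 0.13) on the log2 scale, with the last 3 belonging to the stalk and membrane part of ATP synthase. As given above, readings of Ndufb4 and Atp5l are uncertain for near-identical copies, and those of Ndufa4l2 and Atp5j for overlapping neighbours. In males Cox6b2 passed at 2.76 ± 0.63 (edgeR adjusted p = 0.0170), and Sdha (0.26 ± 0.16) did not.

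The difference between the sexes was tested on its own and passed for 0 of 81 subunit genes, beside 0.104% of all genes, 0.0417% with the male effect higher and 0.0625% lower (edgeR; 3 at an unadjusted p under 0.05, and 0 by DESeq2). For Sdha the male effect minus the female effect was -0.37 with a 95% interval of -0.84 to 0.10. For Atp5md, a small subunit of the membrane part, it was 0.59 with an interval of 0.22 to 0.96 (edgeR adjusted p = 0.283). The female count was 0 without F PFOA replicate 1, 2 without F PFOA replicate 2, 5 without F vehicle replicate 1 and 6 without F vehicle replicate 3, and the male count was 0 without M vehicle replicate 2.

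PFOA in KO livers gave lower readings across most subunits in the fit over both sexes. Among the 83 genes the PFOA mean was below the vehicle mean for 81 in M livers (3 against 3), and above the 1 vehicle library for 56 and below it for 27 in F livers (3 on PFOA). Neither the F effect on its own nor the difference between the sexes was tested in KO. In the fit over both sexes, of the 80 genes that passed the filter, 70 were below 0 and 10 above, with a median log2 fold change of -0.13 against -0.02 for all genes, and the medians of the 5 complexes were close, from -0.16 in complex III to -0.12 in complexes I and II. Past the test were 6 (7.5%), all lower, beside 13.8% of all genes called, 7.41% higher and 6.36% lower. Among genes with a mean of at least 10 CPM it was 4 of 73, beside 16.2%. They comprised 1 of 38 in complex I, 0 of 4 in complex II, 2 of 9 in complex III, 3 of 12 in complex IV and 0 of 17 in complex V. The 95% interval lay within 1.5-fold for 75 of 80 genes. With library totals, RLE and upper quartile factors the median stayed below 0, with 4 to 17 genes above 0.

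Complex III fell in 2 of its electron-handling and core subunits. Uqcrc1 was at 245 CPM in the KO F vehicle liver and 301, 263 and 260 CPM in the M vehicle livers, and at 220, 223 and 215 CPM in F PFOA and 206, 210 and 210 CPM in M PFOA livers. All 6 PFOA livers were below all 4 vehicle livers (log2 fold change -0.33 ± 0.09, edgeR adjusted p = 0.0266, and 0.000658 to 0.122 over its 19 alternatives).

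Cyc1, which hands electrons to cytochrome c, was at 169 CPM in KO F vehicle and 222, 214 and 218 CPM in KO M vehicle livers. On PFOA it was at 162, 175 and 160 CPM in F and 154, 170 and 160 CPM in M livers. The M vehicle livers were above the rest, and the F vehicle liver lay within the PFOA range. Its log2 change was -0.31 ± 0.09 (edgeR adjusted p = 0.0467). Cyc1 and Cox5b each lost the call in 12 of 19 alternatives, Cox5a in 10 and Uqcrc1 in 6.

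In complex IV, Cox5a and Cox5b, matrix-side subunits that contact the catalytic core, fell. Cox5a was at 95.6 CPM in the KO F vehicle and 136, 107 and 126 CPM in M vehicle livers, and at 94.9, 93.0 and 89.2 CPM in F PFOA and 83.8, 88.9 and 95.2 CPM in M PFOA livers. The groups did not overlap, by a margin of under 1 CPM at the F vehicle liver, and the log2 fold change was -0.33 ± 0.10 (edgeR adjusted p = 0.0441). For Cox5b the means were 71.7 ± 6.10 CPM on vehicle (n = 4) and 57.5 ± 4.97 CPM on PFOA (n = 6), with a log2 fold change of -0.31 ± 0.09 (edgeR adjusted p = 0.0418).

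Cox7a1 was at 2.06 CPM in the KO F vehicle liver and 0.537, 0.804 and 0.571 CPM in M vehicle livers, against 0.107 to 0.845 CPM on PFOA (log2 fold change -1.66 ± 0.45, edgeR adjusted p = 0.0280). Without the F vehicle library it was -1.43 and lost the call (edgeR adjusted p = 0.186, and 0.00344 to 0.357 over its 19 alternatives). That library was also the highest in cholangiocyte markers, at 185 CPM against 15.8 to 67.7 CPM in the other KO libraries, and the part of this was not tested. Ndufa4l2 fell in KO as well, from a median of 4.77 CPM on vehicle to 2.95 CPM on PFOA (log2 fold change -0.68 ± 0.18, edgeR adjusted p = 0.0253), and also lost the call without that library (-0.64, edgeR adjusted p = 0.111, and 0.0126 to 0.218 over its 19 alternatives).

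Complexes II and V had no call in KO. Sdha was at 363 CPM in F vehicle and 395, 396 and 465 CPM in M vehicle livers, and at 339, 388 and 393 CPM in F PFOA and 386, 364 and 366 CPM in M PFOA livers, a log2 fold change of -0.11 ± 0.10. Among complex V genes Atp5l, the membrane subunit g, had the smallest p, at -0.52 ± 0.17 (edgeR adjusted p = 0.0581). Cox6b2 was not tested in KO, where 4 vehicle livers gave 3, 5, 7 and 2 reads and 6 PFOA livers 2, 0, 2, 9, 1 and 1.

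Without the 3 KO libraries that carried transcripts of the other sex no F vehicle liver remains, and the comparison rests on 3 M vehicle and 2 M PFOA livers. There 0 of 79 subunit genes passed, while the share of all genes called went from 13.8% to 4.48%. The median log2 fold change was then -0.26, with 1 gene above 0 and 78 below. The count was 0 without M PFOA replicate 3, 1 without M PFOA replicate 1, M PFOA replicate 2 or M vehicle replicate 1, and 3 without F PFOA replicate 3, M vehicle replicate 2 or M vehicle replicate 3.

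Within KO males, 3 livers against 3, the readings were lower still, with 78 of 80 below 0 and a median of -0.23 against -0.01 for all genes. There 5 passed, all lower, beside 9.1% of all genes called, 5.63% higher and 3.46% lower. These were Cyc1 (-0.43 ± 0.10), Cox5a (-0.46 ± 0.11), Uqcrc1 (-0.39 ± 0.10), Cox5b (-0.39 ± 0.11) and the complex I accessory subunit Ndufb8 (-0.38 ± 0.10), on the log2 scale. That count was 0 without M PFOA replicate 1, 1 without M PFOA replicate 2, M PFOA replicate 3 or M vehicle replicate 1, and 3 without M vehicle replicate 2. Over both sexes of KO, 7.41% of all genes were called higher and 6.36% lower. In that fit hepatocyte markers fell in 2 of 7, macrophage markers rose in 3 of 7 and cholangiocyte markers fell in 5 of 5. Stellate markers fell in 2 of 6, endothelial markers rose in 2 of 6, adipocyte markers fell in 1 of 3 tested and neutrophil markers rose in 1 of 2 tested. The neutrophil sum went from 0.444 to 1.49 CPM on vehicle to 88.7 to 327 CPM on PFOA, nearly all of it S100a8 (8.86 ± 0.57 on the log2 scale, edgeR adjusted p = 5.85e-05), while S100a9 did not pass (0.30 ± 0.50, edgeR adjusted p = 0.746) and Ly6g was at 0 in the KO PFOA libraries. Their part was not tested.

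**Figure D4:**
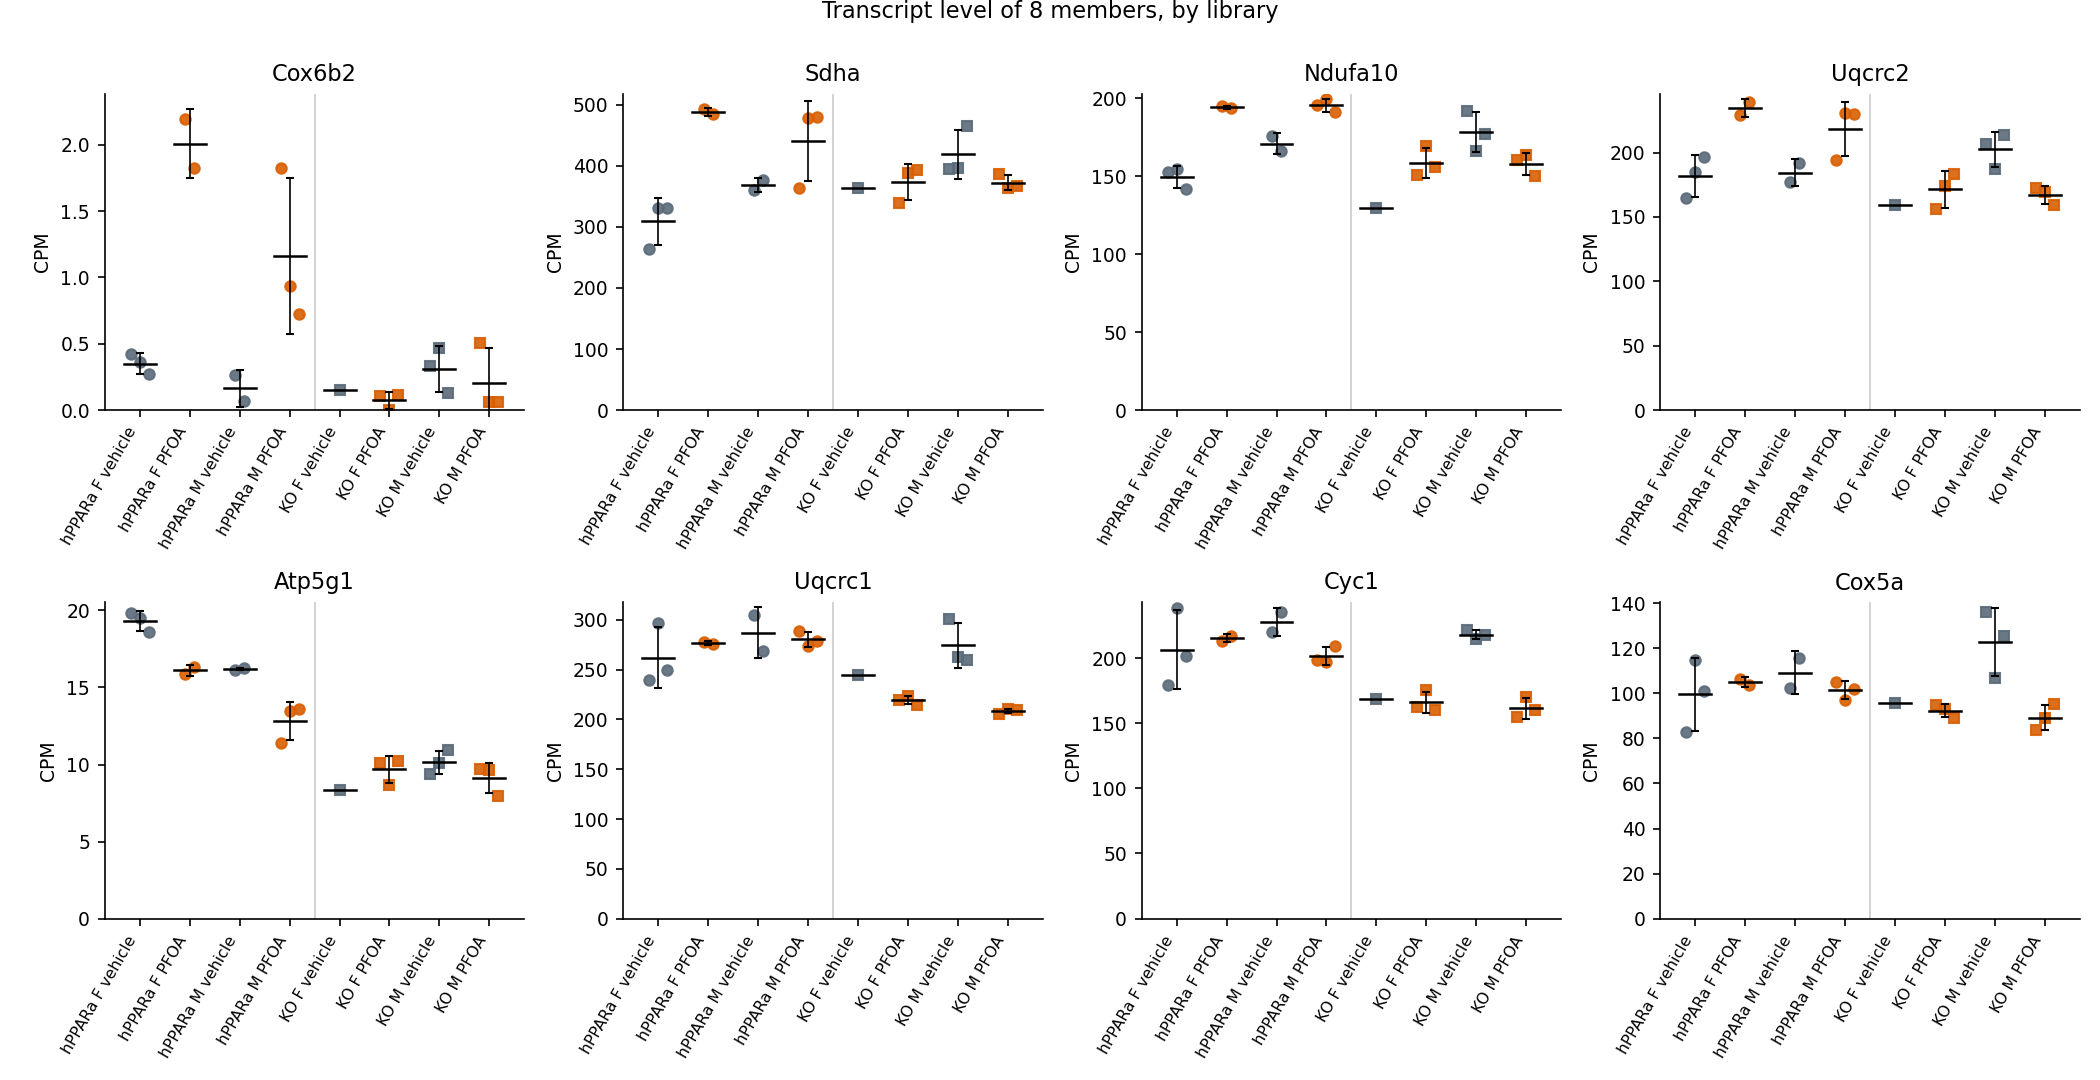
CPM (vertical axes, from 0) of 8 subunit genes in each library, by group (horizontal axes); points are libraries, black lines the mean and SD (no SD for the single KO F vehicle library), circles hPPARa, squares KO, orange PFOA and grey vehicle. Cox6b2, Sdha, Ndufa10 and Uqcrc2 have their highest value in an hPPARa PFOA liver, Uqcrc1, Cyc1 and Cox5a their lowest KO values on PFOA, and Atp5g1 lies at or below 10.9 CPM in every KO liver and at or above 11.4 CPM in every hPPARa liver.

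The test of the difference between the genotypes' PFOA effects, KO minus hPPARa, passed for 0 of 82 subunit genes, beside 1.17% of all genes, 0.443% with the KO effect higher and 0.727% lower (edgeR; 14 at an unadjusted p under 0.05). DESeq2 gave 5, all lower in KO, among them Cox6b2, Ndufv1, Sdha and Uqcrc2. The share of all genes that DESeq2 called is not given here, so this count has no background beside it. Cox6b2 passed the filter on low counts in this fit through its hPPARa PFOA libraries, where it is high, and had 0 to 9 reads in KO livers. By edgeR, Cox6b2 differed by -3.22 ± 0.82 (95% interval -4.93 to -1.51, adjusted p = 0.0568), Ndufv1 by -0.50 ± 0.13 (-0.78 to -0.23, adjusted p = 0.0665), Sdha by -0.55 ± 0.15 (-0.87 to -0.23, adjusted p = 0.0833) and Uqcrc2 by -0.45 ± 0.13 (-0.73 to -0.18, adjusted p = 0.105). The subunits that fell in KO showed differences of -0.34 ± 0.12 (Uqcrc1), -0.24 ± 0.13 (Cyc1) and -0.31 ± 0.14 (Cox5a), which did not pass either. The median difference was -0.08 with 61 of 82 below 0, and 3 passed without hPPARa M PFOA replicate 1, and 1 each without hPPARa M vehicle replicate 1, KO M PFOA replicate 1 or KO M vehicle replicate 3.

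On vehicle, KO livers differed from hPPARa livers in 4 of 82 subunit genes (1 higher, 3 lower), beside 3.77% of all genes (2% higher, 1.76% lower). Because each genotype was deposited in its own table, genotype and any difference between the tables cannot be told apart. Atp5g1 was at 8.33 CPM in the KO F vehicle liver and 9.40, 10.1 and 10.9 CPM in the KO M vehicle livers, all below the 16.1 to 19.8 CPM of hPPARa vehicle livers. The log2 difference was -0.88 ± 0.11 (edgeR adjusted p = 5.99e-05), 1.84-fold lower in KO, and passed in all 27 alternatives at -0.93 to -0.71. Its sister genes for subunit c, Atp5g2 (0.56 ± 0.28) and Atp5g3 (0.21 ± 0.11), did not pass.

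Ndufa6, a complex I accessory subunit of the LYR family, was lower by a log2 difference of -0.56 ± 0.11 (edgeR adjusted p = 0.00650), with 122 to 153 CPM in hPPARa and 85.6 to 93.4 CPM in KO vehicle livers. Uqcrq, a small complex III subunit, was lower by -0.47 ± 0.12 (edgeR adjusted p = 0.0346), and Ndufa3, a membrane-arm accessory subunit, was higher by 0.41 ± 0.11 (edgeR adjusted p = 0.0397). Without the 3 KO libraries named above Atp5g1 alone passed; without KO F vehicle replicate 1 the count was 2, as it was without hPPARa M vehicle replicate 1, KO M PFOA replicate 2 or KO M vehicle replicates 2 or 3, each left out alone, and it was 7 without hPPARa M PFOA replicate 1.

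Genes that serve the complexes without being part of them were taken as lists. Among assembly factors, which build the complexes, 4 rose and 4 fell of 49 tested in hPPARa on PFOA, with Ndufaf4 (-0.56 ± 0.08) and Higd1a (-0.56 ± 0.10) lower, Fmc1 lower (-0.38 ± 0.09) and Ndufaf7 higher (0.40 ± 0.10). That is 16.3%, beside 22.6% of all genes called. In KO 2 rose and 2 fell of 49, or 8.16% beside 13.8% of all genes, including Cox19 (0.43 ± 0.10) and Fmc1 (-0.41 ± 0.11).

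Among 15 carriers of electrons outside the complexes, 5 rose and 0 fell in hPPARa, or 33.3% beside 22.6% of all genes called (12.8% higher). Etfdh, which passes electrons from fatty acid oxidation to coenzyme Q, was at 116, 68.9 and 155 CPM in hPPARa F vehicle and 142 and 144 CPM in M vehicle livers, and at 349 and 368 CPM in F PFOA and 237, 326 and 323 CPM in M PFOA livers. Every PFOA liver was above every vehicle liver, with a log2 fold change of 1.34 ± 0.21 (edgeR adjusted p = 0.000924). The coenzyme Q biosynthesis genes Coq5 (0.33 ± 0.08) and Coq6 (0.43 ± 0.10) and the glycerol phosphate shuttle enzyme Gpd2 (0.43 ± 0.10) also rose. In KO 1 rose and 1 fell of 15, or 13.3% beside 13.8% of all genes. Etfdh rose by 0.48 ± 0.09 (edgeR adjusted p = 0.00476), and Pdss1, which makes the coenzyme Q tail, fell (-0.73 ± 0.18). Coq6 passed the test of the genotypes' difference at -0.56 ± 0.13 (edgeR adjusted p = 0.0362), and lost it in 11 of 27 alternatives.

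Of 11 regulators of mitochondrial biogenesis, 1 fell in hPPARa, beside 22.6% of all genes called (9.76% lower). This was Ppargc1a, the coactivator PGC-1alpha, at -0.75 ± 0.20 (edgeR adjusted p = 0.0195). In KO its log2 change was -0.68 ± 0.19 (edgeR adjusted p = 0.0358) while Gabpa, which overlaps Atp5j, rose by 0.32 ± 0.08. The share of all genes called in KO was 13.8%. KO F vehicle replicate 1 was the highest KO library for Ppargc1a at 17.3 CPM, and without it the call was lost (edgeR adjusted p = 0.272, and 0.000132 to 0.472 over 19 alternatives). Of 13 genes that track mitochondrial content, Hspd1, the matrix chaperonin (0.75 ± 0.11), and Cs, citrate synthase (0.26 ± 0.09), rose in hPPARa. Of all genes there, 22.6% were called (12.8% higher). In KO 0 of the 13 passed, beside 13.8% of all genes.

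The 13 subunits made from mitochondrial DNA were read apart from the nuclear ones. Only 7 passed the filter, the other 6 (mt-Nd3, mt-Nd4l, mt-Co2, mt-Co3, mt-Atp6 and mt-Atp8) being at or near 0 in these tables. In hPPARa 2 fell, mt-Nd4 (-0.62 ± 0.16) and mt-Cytb (-0.60 ± 0.16), and the same genes fell in KO (-0.50 ± 0.14 and -0.52 ± 0.13). The shares of all genes called were 22.6% in hPPARa (9.76% lower) and 13.8% in KO (6.36% lower). In hPPARa females all 7 tested fell, with a median of -0.78, beside 18.4% of all genes called (7.87% lower). In hPPARa males 0 passed, beside 8.2%. The share of counts from these 13 genes was 10.2% to 12.2% in hPPARa F vehicle and 6.34% to 6.62% in F PFOA livers, against 8.77% to 11.4% and 8.72% to 12.4% in M. The sex difference did not pass for any of the 7 (edgeR; 6 at an unadjusted p under 0.05). Nuclear subunits over the same F livers had a median of -0.05.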

How the data were processed

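The authors deposited raw counts per gene symbol in 2 tables, 1 for each genotype, with 10 libraries each. Per the submitters' processing notes reads were handled with STAR 2.5.3 and the GRCm39 build, featureCounts 1.6.1 and edgeR 3.36.0 (in R 4.1.0), besides cutadapt 1.15 and FastQC 0.11.5; annotation, strand setting and handling of reads that match several genes are not stated. The PFOA unit was read as micromolar.

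Counts were analysed as deposited in R 4.3.3 with edgeR 4.0.16 (limma 3.58.1): TMM factors and filterByExpr by group came first, then a quasi-likelihood test (robust) whose p-values were adjusted by Benjamini-Hochberg over every gene tested, with a threshold of 0.05. The PFOA effect was fitted per genotype with sex as a term. The genotype difference and the vehicle levels used all 20 libraries, and effects within a sex used 4 groups. SE is the absolute log2 fold change over the square root of F, and intervals are at 95%. DESeq2 1.42.0, RLE, upper quartile and library-total scaling, no filter, a replicate block, left-out libraries, a joint fit and equal weight of the sexes were alternatives. Code was tested on simulated data. Labels do not say that libraries are separate animals, so p-values may measure technical spread; replicate pairs differed by more than counting noise.

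The members and lists were chosen with earlier results of these data known. Within a complex the text names up to 4 called genes with the smallest adjusted p and the largest change each way, or the 2 smallest p where none passed, plus core and isoform genes; for other lists it names the 4 smallest adjusted p. Cox6b1, Atp5g2, Atp5g3 and genes with near-identical copies were added after their values were seen. The same replicate number does not pair samples in the labels. Values of 1 gene are not reported here; it stays in counts and medians.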

Additional observations from a re-analysis of the deposited data

How the results depend on the processing

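Of 36 calls of subunit genes over the 8 comparisons, 2 held in every alternative (Cox6b2 for PFOA in hPPARa and Atp5g1 for genotype on vehicle) and 34 were lost in at least 1; the cause was not tested. Leaving out 1 library at a time gave 1 to 19 called members for PFOA in hPPARa, 0 to 7 in KO, 0 to 3 for the genotypes' difference, 2 to 7 for genotype on vehicle, 0 to 12 in hPPARa females, 0 to 1 in hPPARa males, 0 to 0 for the sexes' difference and 0 to 4 in KO males. Leaving out the 3 KO libraries that carried other-sex transcripts, the count was 0 in KO, 1 for genotype on vehicle and 0 in KO males. DESeq2 gave 5 for the genotypes' difference, 9 for genotype on vehicle and 10 in KO males. Upper quartile factors gave 10 in KO, 3 for the genotypes' difference and 11 in KO males. Library totals gave 3 for the genotypes' difference, 2 in hPPARa males and 2 in KO males. No filter gave 3 for the genotypes' difference and 7 for genotype on vehicle, and equal weight of the sexes gave 3 in KO. The shares of all genes called under these alternatives are not given beside the counts, which cover subunit genes alone. With the replicate number as a block the count was 3 in KO, 2 for the genotypes' difference and 3 in KO males. The labels do not pair same-numbered libraries, so the numbers were not taken as pairs. Same-numbered libraries correlated at -0.0443 to 0.0967 and differently numbered ones at -0.113 to 0.113. These values cannot decide on pairing, because in groups this small they offset each other. Of 2211 single-gene values under an alternative, 1780 kept their side of the threshold and direction, 382 lost a call, 48 gained one and 1 reversed: Sdhd for the sexes' difference, -0.13, was 0.0164 without hPPARa F vehicle replicate 1 and -0.23 without F vehicle replicate 2. Depth limits the isoforms read at a few counts, Cox4i2, Cox6a2 and Cox6b2.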

Other observations

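The processed copy Ndufa12-ps, which the symbol rule sets aside and which was chosen here after its values were seen, ranged from 0.134 to 14.5 CPM over the 20 libraries. It was at 0.619 and 0.285 CPM in hPPARa F PFOA livers, at 0.134 CPM in hPPARa M vehicle replicate 2 and at 0.361 and 0.176 CPM in KO M PFOA replicates 2 and 3. In the other 15 libraries it was at 4.54 CPM or more. It passed no comparison (edgeR adjusted p = 0.137 at the lowest, in hPPARa females).

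Between vehicle livers, 3 genes that serve the complexes were lower in KO than in hPPARa by edgeR: Etfb, a subunit of the electron transfer flavoprotein (log2 difference -0.79, adjusted p = 0.000718), and the complex IV assembly factors Coa6 (-0.83, adjusted p = 0.0057) and Cox14 (-0.45, adjusted p = 0.0208). Of all genes in that comparison, 3.77% were called, 2% higher and 1.76% lower in KO, so a few calls in lists of this size are near the general share. Genotype and table cannot be told apart there.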
